A study of Mus musculus with 2 samples.

Results

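The exons described here are 742 internal exons of protein-coding genes that are longer than 51 nt, have a length that is not a multiple of 3, and are carried by some long reads and skipped by others. They were selected on the measured values themselves, from 42227 internal exons of any length with at least 20 informative reads in each library. Informative reads are the reads that carry the exon plus those that join its flanking splice sites directly, and inclusion is the percentage of them that carry the exon. An exon was kept when its inclusion over both libraries lay between 5% and 95%, so the inclusion levels given below are a description of the selection and not a test. The 742 exons lay in 615 genes, of which 516 held 1 such exon and 99 held 2 or more.

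B6CASTF1/J mice are first-generation hybrids of C57BL/6 and the castaneus strain CAST. Adult animals of 18 to 20 months gave the left cerebral cortex, from which each of 2 libraries was made with 2 µg of RNA. Both belong to 1 group, as biological replicates 1 and 2, share their donor entry and carry no contrast of treatment or genotype. No label says that they came from separate animals, so the spread between them may be technical, and a test between them compares 2 libraries and not conditions. The sample fields give the sex as female and a free-text description gives it as male. Xist had 34 and 29 reads, and the Y-linked genes Ddx3y, Eif2s3y, Uty and Kdm5d had 0 reads in both libraries.

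The libraries held 871524 and 839150 reads, of which 755429 and 659538 lay on protein-coding genes and 636527 and 547851 had at least 1 internal exon. Defining markers of neurons (Slc17a7, Gad1), astrocytes (Aldoc, Gja1), oligodendrocytes (Mbp), microglia (Csf1r, C1qa) and endothelium (Cldn5) had reads in both. The microglial marker Cx3cr1 had 0 and 7 reads, the choroid plexus marker Ttr had 18 and 5 reads, and Folr1 had 0. This is bulk tissue, so an inclusion level of 50% can come from both forms in each cell or from different cells.

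Splicing joins the exons of a pre-mRNA, and a cassette exon is one that the spliceosome can leave out together with both introns around it. Leaving out an exon whose length is a multiple of 3 removes whole codons and keeps the frame downstream. Leaving out any other exon shifts the frame of what follows, unless the exon lies outside the coding sequence, a partner exon of matching length takes its place, or the changed frame ends at a stop codon of its own near the end of the transcript. A stop codon well upstream of the last exon junction is the usual trigger of nonsense-mediated decay, the surveillance pathway that degrades such mRNAs, and an exon whose inclusion brings in such a stop is called a poison exon. In the brain, exchanged exon pairs of this length class are well known from SNAP-25, a SNARE protein of synaptic vesicle fusion, and from the AMPA-type glutamate receptors.

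The first set of sequences shows exons of equal length that take each other's place, so that the frame is kept although neither length is a multiple of 3. In Snap25 the upstream exon is the one known as 5a and the downstream exon as 5b, and in Gria2, which encodes the AMPA receptor subunit GluA2, the upstream exon is flop and the downstream exon flip. All sequences are from the GENCODE M21 transcripts of the C57BL/6J reference (GRCm38, called mm10 in the files), 5′ to 3′ on the transcribed strand, and capitals mark the bases that differ between the 2 exons of a pair.
Snap25 upstream exon (chr2:136769743-136769860, plus strand): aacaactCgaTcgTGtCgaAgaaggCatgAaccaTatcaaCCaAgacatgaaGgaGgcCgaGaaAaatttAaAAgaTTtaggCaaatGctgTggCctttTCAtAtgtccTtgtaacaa
Snap25 downstream exon (chr2:136770057-136770174, plus strand): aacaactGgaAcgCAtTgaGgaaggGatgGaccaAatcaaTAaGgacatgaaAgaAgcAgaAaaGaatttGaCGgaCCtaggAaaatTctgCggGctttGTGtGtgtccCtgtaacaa
Gria2 upstream exon (chr3:80691320-80691434, minus strand): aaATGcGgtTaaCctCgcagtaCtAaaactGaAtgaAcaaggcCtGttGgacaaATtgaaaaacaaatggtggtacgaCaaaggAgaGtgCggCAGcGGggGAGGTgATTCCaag
Gria2 downstream exon (chr3:80690404-80690518, minus strand): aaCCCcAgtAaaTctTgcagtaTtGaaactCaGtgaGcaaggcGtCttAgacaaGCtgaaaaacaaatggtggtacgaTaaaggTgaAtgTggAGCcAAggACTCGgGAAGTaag
The Snap25 exons are both 118 nt long and differ at 31 bases (73.7% identity), and the Gria2 exons are both 115 nt long and differ at 36 bases (68.7% identity).

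The second set shows what the frame of the annotated start meets inside an included exon, before any shift that the length of the exon brings. Each sequence runs from the first base of the exon to the first stop codon in that frame, with the 3 bases of the stop in capitals. In the first 4 the stop lies more than 50 nt upstream of the last exon junction and is called premature here. In the last 3 it is an annotated stop codon of a protein-coding transcript.
Yaf2, 70-nt exon (chr15:93317554-93317608, minus strand): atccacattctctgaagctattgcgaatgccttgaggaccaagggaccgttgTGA
Glrx3, 89-nt exon (chr7:137452453-137452470, plus strand): cctccaggcatctttTGA
Vopp1, 157-nt exon (chr6:57808666-57808692, minus strand): ggggttacaactaagagattgcctTGA
Uqcr10, 86-nt exon (chr11:4703963-4703989, minus strand): ttccacatattcatttgcgaaagcTAA
Gpm6b, 91-nt exon (chrX:166385391-166385471, plus strand): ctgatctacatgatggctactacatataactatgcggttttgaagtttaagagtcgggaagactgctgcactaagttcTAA
Capzb, 113-nt exon (chr4:139288861-139288963, plus strand): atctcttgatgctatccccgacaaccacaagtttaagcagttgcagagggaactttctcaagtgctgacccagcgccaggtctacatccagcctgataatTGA
Rab28, 95-nt exon (chr5:41626992-41627081, minus strand): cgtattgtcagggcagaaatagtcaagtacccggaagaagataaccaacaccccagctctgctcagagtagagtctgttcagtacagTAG
The in-frame stop came 18 bases into the exon in Glrx3 and 103 bases into it in Capzb.

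The third set shows the frame after an exon is skipped, from 12 bases before the new junction to the premature stop in capitals. The coordinates of these span the intron that the skipping junction removes.
Adap1, 131-nt exon skipped (chr5:139302352-139325292, minus strand): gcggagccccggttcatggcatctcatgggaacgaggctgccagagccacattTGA
Rab28, 89-nt exon skipped (chr5:41687831-41703449, minus strand): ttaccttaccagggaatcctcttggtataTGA
Setd3, 149-nt exon skipped (chr12:108158299-108162984, minus strand): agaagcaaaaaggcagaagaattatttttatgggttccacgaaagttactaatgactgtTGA
G3bp1, 82-nt exon skipped (chr11:55485727-55489037, plus strand): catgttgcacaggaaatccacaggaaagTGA
These 4 stops were reached by 68, 35, 48 and 25 skipping reads.

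Of the 39852 internal exons over 51 nt with enough reads, 24413 (61.3%) had a length that is not a multiple of 3. Most of these were constitutive in this tissue: 22318 had an inclusion above 95%, of which 20499 were never skipped in these reads. At the other end, 1353 had an inclusion below 5%. The 742 exons within the window were 3.04% of the frame-shifting exons over 51 nt, and the 717 within it whose length is a multiple of 3, called frame-preserving below, were 4.64% of 15439. Frame-shifting exons were thus 50.9% of the 1459 cassette exons over 51 nt. The median length of the 742 was 110 nt, from 52 to 2606 nt, and 24 were longer than 300 nt. The remainder after division by 3 was 1 for 379 of them and 2 for 363, with median inclusions of 74.6% and 72.9%.

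Inclusion was mostly near one end of the window. The median over the 742 exons was 73.7% with both libraries pooled, 73.2% in replicate 1 and 74.3% in replicate 2. An inclusion above 80% was measured for 339 exons (45.7%), one below 20% for 200 (27%), and one from 20% to 80% for 203 (27.4%). Among the 717 frame-preserving exons, the median was 65.4% and 39.2% lay from 20% to 80%. At the lower limit, the 82-nt and 167-nt exons of Syt16 (5 of 100 reads each, 5%) and the 74-nt exon of Smim14 (5.01%) were the nearest inside, and Deaf1 (4.96%), Rbm39 (4.94%) and Caly (4.92%) the nearest outside. At the upper limit, exons of Atp9b, Car10 and Cdk11b (95%) were the nearest inside, and Rbm7 (95.06%), Slc25a16 (95.08%) and St6galnac6 (95.08%) the nearest outside.

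The number of exons within the rule depended on the read minimum and on which models were counted. It was 1297 with 10 informative reads per library and 230 with 50, and the median inclusion of those 230 was 55.1%. It was 145 when annotated transcripts alone were counted and 421 when models with 1 read in a library were left out of that library.

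The libraries gave similar inclusion levels. The median absolute difference was 4.66 percentage points, 402 exons differed by less than 5 points and 589 by less than 10, and 16 differed by more than 20. Replicate 2 was higher for 385 exons, lower for 353 and equal for 4. Across the 742 exons, which share the libraries and in part the genes, Pearson's r was 0.974. An exon had a median of 75.5 informative reads over both libraries, and the median width of its 95% Wilson interval in 1 library was 19.8 points, wider than the median difference. Intervals cover counting error only.

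**Figure D1:**
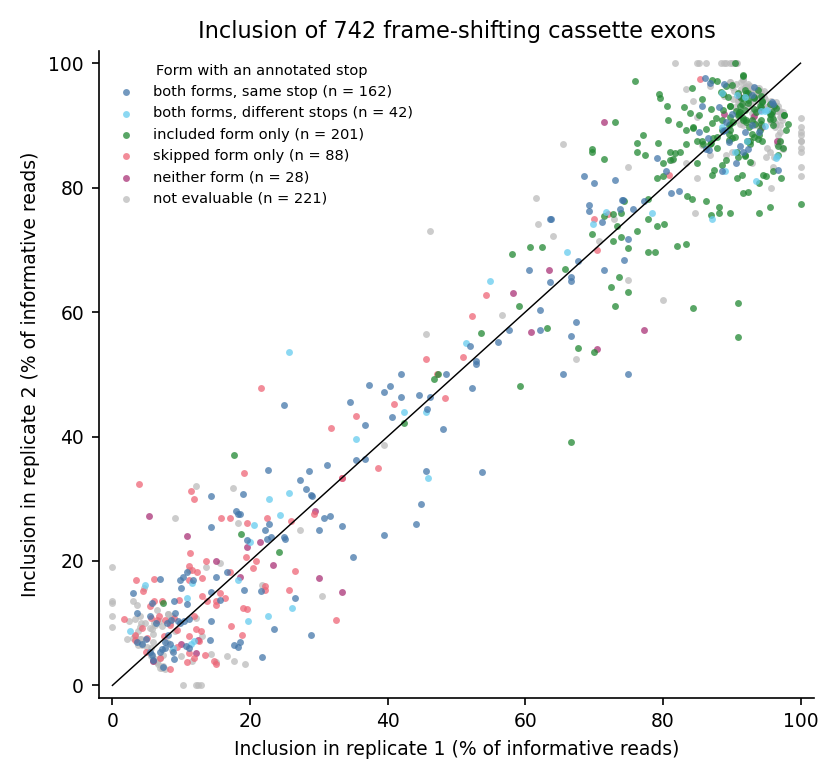
Inclusion in replicate 1 (x axis) against replicate 2 (y axis), in percent of informative reads, for each of the 742 exons, coloured by which form reached an annotated stop codon; the line marks equal values. Points gather in the corners of low and high inclusion, with a median absolute difference of 4.66 points.

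By Fisher's exact test on the inclusion and skipping reads of the 2 libraries, two-sided and adjusted over all 1730 cassette exons of any length, 0 of the 742 exons differed. The background was 1 called exon of 1730, or 0.0578%, a 57-nt exon of Eef1d that is frame-preserving and not in the set. At an unadjusted p under 0.05 there were 29 of the 742 (3.91%), against 3.64% of the 1730. The lowest p among the 742 was that of a 256-nt exon of Ahi1, a gene of the primary cilium, carried by 11 of 51 reads in replicate 1 (21.6%) and 33 of 69 in replicate 2 (47.8%, Fisher's exact p = 0.00398, adjusted p = 1). An 80-nt exon of Bbs4, which encodes a subunit of the ciliary BBSome, was at 96% and 82.6% (exact p = 0.00595). A 64-nt exon of Adam15, not annotated as an internal exon, was in 1 of 26 and 11 of 34 reads (Fisher's exact p = 0.00803). These 3 exons differed by over 10 points between the libraries, and each had an adjusted p of 1. When incomplete splice match and genomic models were left out, 1 exon of the set passed, the 272-nt exon of AC149090.1, at 91.9% and 77.2% (adjusted Fisher's exact p = 0.0174), while over all reads it was at 81.3% and 84.5%.

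To see how each exon bears on the reading frame, reads of both forms were followed from the annotated start codon with the most reads to the first stop codon in frame, using the sequences of annotated exons. For 521 of the 742 exons at least 5 reads of each form could be followed. A form was said to keep an annotated frame when at least 50% of its followed reads reached an annotated stop codon. Followed reads include those whose model ended without a stop in frame. The included form alone did so for 201 exons (38.6% of the 521), the skipped form alone for 88 (16.9%), both forms at the same stop for 162 (31.1%), both at different stops for 42 (8.06%) and neither for 28 (5.37%). The remaining 221 exons were not evaluable.

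Among the 571 frame-preserving exons followed in the same way, both forms reached the same stop for 464 (81.3%), and 63 (11%) had an annotated stop in 1 form alone, against 289 (55.5%) of the frame-shifting exons. This contrast follows in part from the length rule that separates the 2 sets and was not tested.

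**Figure D2:**
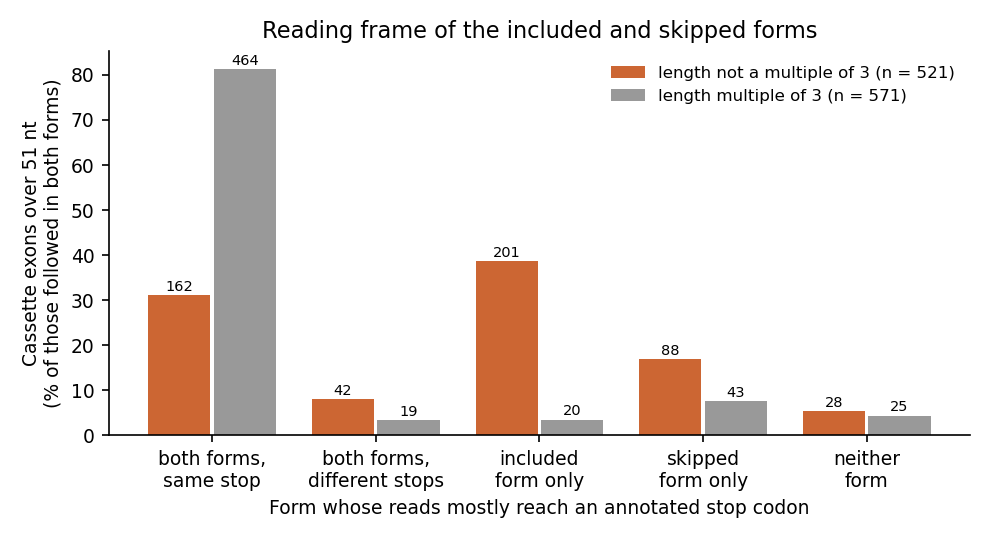
Percentage of cassette exons over 51 nt (y axis) by the form whose reads mostly reach an annotated stop codon (x axis), for 521 frame-shifting and 571 frame-preserving exons followed in both forms; numbers above the bars are exons. Both forms shared a stop for 81.3% of the frame-preserving and 31.1% of the frame-shifting exons.

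The form that kept an annotated frame was mostly the more abundant form, but the classes are not independent of abundance. Reads were followed from the annotated start codon with the most reads, and only annotated stops counted, which can favour the abundant form in advance. Of the 289 exons with an annotated stop in 1 form alone, the form with that stop had more reads for 274 (94.8%) and fewer for 15. The relation was not tested. Exons with an annotated stop in the included form alone had a median inclusion of 88%, and those with it in the skipped form alone 15.1%. These medians were 88.7% and 87.5% for the former in replicates 1 and 2, and 13.7% and 15.2% for the latter. Of the 289, both the exon and its skipping junction were annotated for 207, and the form with the annotated stop was the more abundant one for 194 of those (93.7%). Where both forms reached the same stop, the median inclusion was 36.3%. Frame-preserving exons were split likewise, with medians of 81.1% (annotated stop in the included form alone) and 21% (in the skipped form alone).

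**Figure D3:**
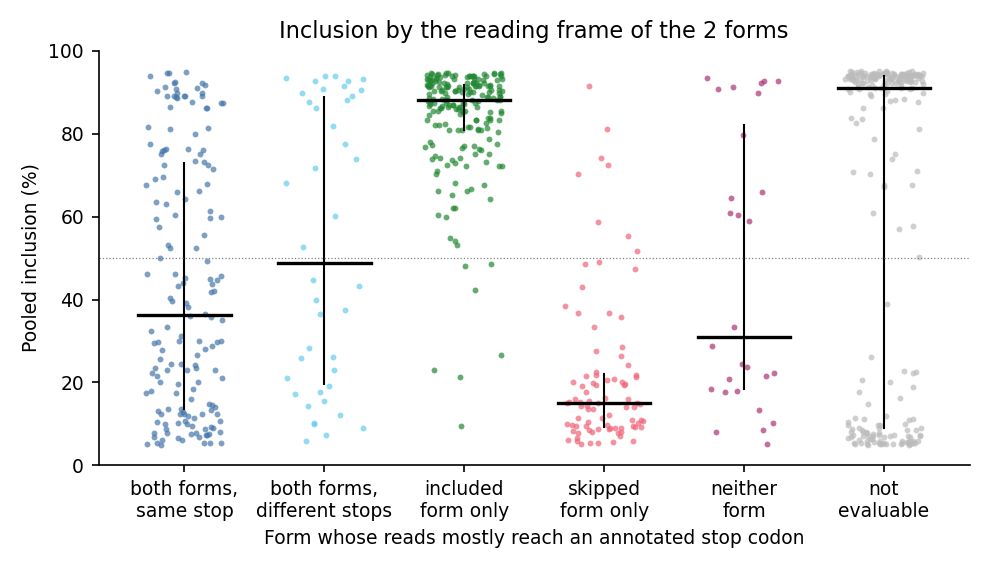
Pooled inclusion in percent (y axis) of each of the 742 exons, grouped by the form whose reads mostly reach an annotated stop codon; thick lines are medians, thin lines the quartiles, and the dotted line marks 50%. Exons with an annotated stop in the included form alone have a median of 88%, those with it in the skipped form alone 15.1%.

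Exons were also described by their position in the inclusion reads. It was taken against the start codon followed and the first stop codon in its frame, whether annotated or not. Inside the coding sequence lay 376 exons (50.7%) with a median inclusion of 88.8%. The 123 exons before the start codon had a median of 18%, the 63 that held the start codon 89.1%, the 107 that held a stop codon 14% and the 25 after the stop codon 87.5%. The remaining 48 could not be placed. Frame-preserving exons had medians of 30.4% before the start codon, 80% where they held it and 75% inside the coding sequence. Their medians were 20.7% where they held a stop codon and 59.3% after it. Of the 201 exons with an annotated stop in the included form alone, 192 lay inside the coding sequence. Of the 88 with it in the skipped form alone, 61 held a stop codon themselves. Of the 25 exons after the stop codon, 5 had a shared annotated stop and 7 were not evaluable. A further 9 had an annotated stop in neither form, and 4 in the skipped form alone. Of the 162 with a shared stop, 95 lay before the start codon, 26 held it and 34 lay inside the coding sequence.

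Skipping of a coding exon was the most frequent kind of frame change. For 166 of the 201 exons with an annotated stop in the included form alone, over 50% of the skipping reads that could be followed met a premature stop. The skipping junction was in an annotated transcript for 131 of the 201, and 36 had skipping reads on transcripts annotated as targets of nonsense-mediated decay. Adap1, which encodes an Arf GTPase-activating protein found mainly in neurons, carried its 131-nt exon in 292 of 326 reads in replicate 1 (89.6%, 95% Wilson interval 85.8 to 92.4) and 242 of 276 in replicate 2 (87.7%, 83.3 to 91). The 68 skipping reads all met the premature stop printed above, and their junction was not in an annotated transcript. The 2 libraries overlapped in their intervals.

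The small GTPase gene Rab28 carried its 89-nt exon in 89.8% and 93.1% of reads, and its 35 skipping reads that could be followed met a premature stop, again over an unannotated junction. Setd3, which encodes the actin histidine methyltransferase, carried its 149-nt exon in 83.3% and 87% of reads. G3bp1, a core protein of stress granules, carried its 82-nt exon in 92.4% and 93.6%. In these genes the skipped form was a minority in both libraries.

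Skipping was more frequent in Actr3b, a paralogue of the Arp3 subunit of the actin-nucleating Arp2/3 complex. Its 56-nt exon was in 131 of 199 reads (65.8%) and 79 of 118 (66.9%), and the 107 followed skipping reads all met a premature stop in the frame of the start codon followed. The annotation differs from this call, since 91 of these 107 reads were on transcripts annotated as protein-coding and 0 on decay targets. Ppp1r1a, an inhibitor subunit of protein phosphatase 1, carried its 61-nt exon in 84.2% and 78.2%, and Coq2, an enzyme of coenzyme Q synthesis, its 167-nt exon in 73.6% and 65.6%. For each of these exons the skipping junction was annotated.

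Exons with an annotated stop in the skipped form alone were the mirror image. For 78 of these 88 exons, over 50% of the followed inclusion reads met a premature stop. Of the 88, 77 were annotated internal exons, and 24 had inclusion reads on transcripts annotated as decay targets. The most frequent in reads was the 70-nt exon of Yaf2, which encodes a partner of the Polycomb protein RING1 and of YY1. It was in 124 of 303 reads in replicate 1 (40.9%) and 111 of 245 in replicate 2 (45.3%), and 221 of the 222 followed inclusion reads met the stop printed above. Of its inclusion reads, 217 were on a transcript annotated as a decay target. The premature form was thus a large minority of Yaf2 reads in both libraries.

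Other exons of this class spanned a wide range of inclusion. The 89-nt exon of Glrx3, a cytosolic glutaredoxin, was in 6.47% and 10.5% of reads, the 86-nt exon of Uqcr10, a subunit of respiratory complex III, in 8.96% and 10.9%, and the 157-nt exon of Vopp1 in 11.8% and 11.2%. For Vopp1, 21 of the 31 inclusion reads were on transcripts annotated as protein-coding and 0 on decay targets. The 124-nt exon of Snrpb, a core protein of the spliceosomal snRNPs, was in 6 of 124 and 6 of 112 reads (4.84% and 5.36%), with 8 of 12 inclusion reads on a decay-annotated transcript. Stau2, which encodes an RNA transport protein of dendrites, carried a 131-nt exon in 29.3% and 27.6%, with 48 of its 66 inclusion reads on transcripts annotated as protein-coding and 0 on decay targets. Nt5c3, a cytosolic nucleotidase, carried a 55-nt exon in 47.1% and 50%, with 77 of its 83 inclusion reads annotated as decay targets. Inclusion of the exons named here thus ranged from near the lower limit of the window to about equal with skipping. A further 8 exons of the class, described below, were above 50%.

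Exons of Pde2a, Mapk9 and Syt16 were in the same class. The 62-nt exon of Pde2a, a cyclic nucleotide phosphodiesterase, was in 9.42% and 8.97% of reads, with 13 of 26 inclusion reads on a decay-annotated transcript. The 241-nt exon of Mapk9, which encodes the kinase JNK2, was in 9.43% and 6.12%. The 821-nt exon of Syt16, a synaptotagmin family gene, was in 46 of 101 and 54 of 103 reads (45.5% and 52.4%), and all 93 followed inclusion reads met a premature stop. The Syt16 reads were split about evenly in both libraries.

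In 15 exons the form with the annotated stop was the minority. The included form alone kept the frame, at an inclusion under 50%, in Mbnl2, Rnf114, Rbck1, Fopnl, Ntan1, Tango2 and Atxn2. In Rnf114, a ubiquitin ligase gene, 20 of 107 and 25 of 103 reads carried the 151-nt exon (18.7% and 24.3%), and 163 of the 165 skipping reads were on a transcript annotated as a decay target. In Mbnl2, a splicing factor, 46.8% and 49.3% of reads carried the 95-nt exon, and the followed skipping reads met neither an annotated nor a premature stop. The 7 exons thus differed in how their skipped form ended.

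The skipped form alone kept the frame, at an inclusion above 50%, for 8 exons, among them the 358-nt exon of Srsf9, an SR splicing factor, at 52.2% and 59.3%, with 40 of 68 inclusion reads on a decay-annotated transcript. Cnot2, of the CCR4-NOT deadenylase, had 2 of them, and Dnajc6, the neuronal clathrin uncoating factor auxilin, 1, in 54.3% and 62.7% of reads. The 154-nt exon of Atp2b1, a plasma membrane calcium pump, was in 85.4% and 97.5% of reads and the 85-nt exon of Nkain4 in 70% and 75%. In both of those genes the followed inclusion reads met neither an annotated nor a premature stop.

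Both forms reached annotated but different stops for 42 exons, of which 17 held a stop codon themselves and 24 lay inside the coding sequence. Protein was not measured. Gpm6b, which encodes a membrane glycoprotein of neurons and glia, carried its 91-nt exon in 116 of 562 reads in replicate 1 (20.6%, 95% Wilson interval 17.5 to 24.2) and 118 of 458 in replicate 2 (25.8%, 22 to 30), and 99.1% of followed inclusion reads and 99.3% of skipping reads reached an annotated stop. Capzb, the beta subunit of the actin capping protein, carried its 113-nt exon in 10.9% and 14.1%. The 95-nt exon of Rab28 was in 25.6% and 31%. In these 3 genes the included exon itself held the annotated stop printed above.

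Further exons of this kind were in Camk2d, Brsk2, Dclk1 and Ncoa1. Camk2d, a calcium/calmodulin-dependent kinase, carried its 89-nt exon in 35.4% and 39.6%, Brsk2, a kinase of neuronal polarity, its 95-nt exon in 45.6% and 44%, and Dclk1, a microtubule-associated kinase, its 74-nt exon in 54.9% and 65%. For Brsk2, 25.5% of followed inclusion reads and 26.9% of skipping reads met a premature stop elsewhere. Ncoa1, a nuclear receptor coactivator, carried its 55-nt exon in 66.1% and 69.6%. The 2 libraries differed by about 10 points for Dclk1 (exact p = 0.184) and by less than 5 for the others.

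**Figure D4:**
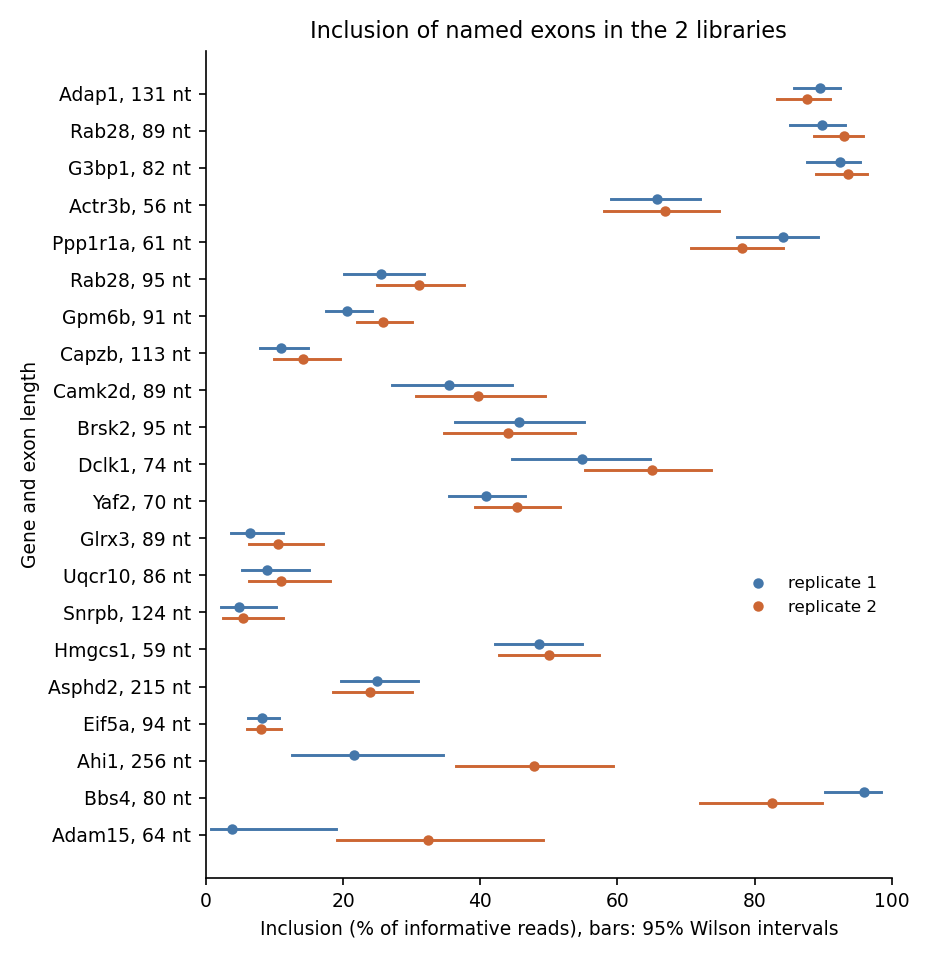
Inclusion in percent of informative reads (x axis) of 21 named exons (y axis, gene and length) in replicate 1 (blue) and replicate 2 (orange), with 95% Wilson intervals as bars. The intervals of the 2 libraries overlap for all exons drawn except Ahi1, Bbs4 and Adam15.

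Of the 123 exons before the start codon, 95 had both forms at the same stop and 17 were not evaluable. The 94-nt exon of Eif5a, a translation factor that helps ribosomes through stalling peptides, was in 45 of 555 and 37 of 457 reads (8.11% and 8.1%). Hmgcs1, a cholesterol synthesis enzyme, carried a 59-nt exon in 114 of 235 and 89 of 178 reads (48.5% and 50%), and a 158-nt form that uses another acceptor site of the same exon in 14.2% and 7.29%. Followed reads of both Hmgcs1 forms reached the annotated stop in 99% or more. So Hmgcs1 reads split about evenly between carrying and skipping the 59-nt exon.

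Exons before the start codon were also measured in Mff, Atp5j and Ndufs1. The 172-nt exon of Mff, a fission factor, was in 7.32% and 2.92% of reads, the 55-nt exon of Atp5j, an ATP synthase subunit, in 5.49% and 5.37%, and the 104-nt exon of Ndufs1, a complex I subunit, in 9.84% and 17%. The pooled inclusion of the Mff exon was 5.14%, and 0.529% when annotated transcripts alone were counted. Asphd2 had 2 exons before its start, of 215 and 124 nt, at 24.9% and 23.9% and at 22.4% and 23.6%. The 215-nt exon was not annotated as an internal exon, and 15.3% of the 437 reads that spanned both exons carried both. At the other side of the start, the 193-nt exon of Ctbp1, a transcriptional corepressor, holds an annotated start codon and was in 82.4% and 79.5% of reads, with both forms at the same stop. Counting annotated transcripts alone, its inclusion was 50.2% against 81.1% in the pooled reads.

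Exons with few inclusion reads over directly joined flanks were a small share of the set. For 56 exons (7.55%) in 48 genes, under 50% of the inclusion reads used flanking sites that are joined directly in other reads. These are called exchanged here, but the measure neither requires a partner exon nor finds every pair. The 172-nt exon of Atp2b2 met it (28.1%), while 81.1% of 53 reads over it and a 127-nt exon carried neither. The Dlgap4 exons of 80 and 89 nt did not (98.9% and 100%), although 80.4% and 17.8% of 225 reads carried 1 alone. A pair that does take turns enters the set when a few reads carry both partners. The skipping reads counted for one partner are then mostly those that carry the other. The downstream exon of Snap25 was in 2045 of 2298 reads in replicate 1 (89%) and 1632 of 1827 in replicate 2 (89.3%), and the upstream exon in 254 of 2298 (11.1%) and 193 of 1824 (10.6%). Of 4121 reads over both exons, 89.2% carried the downstream exon alone, 10.8% the upstream exon alone, 1 read both and 0 reads neither. When inclusion was counted from reads with directly joined flanks alone, the downstream exon had 0.223% and no longer met the rule.

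Gria2 was closer to even. The upstream flop exon was in 69 of 155 and 82 of 176 reads (44.5% and 46.6%), and the downstream flip exon in 88 of 157 and 100 of 181 (56.1% and 55.2%). Of 330 reads over both, 54.5% carried flip alone, 43.3% flop alone, 2.12% both and 0 reads neither. In Tpm3, a tropomyosin gene, the downstream of 2 exons of 76 nt was in 89.6% and 87.3% of reads and the upstream in 10.9% and 13.1%, and 0.404% of 495 reads carried both. Both Tpm3 exons were at 100% when annotated transcripts alone were counted, when models with 1 read in a library were left out and when skipping was counted over the most read flanks alone. They were at 3.39% (downstream) and 0.457% (upstream) when inclusion was counted from reads with directly joined flanks. Followed reads of either partner reached the same annotated stop in each of these 3 genes.

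Pairs could also be read along the whole molecule. There were 128 pairs of non-overlapping exons of the set in 82 genes with at least 40 reads over both, and in 14 of them over 90% of reads carried exactly 1 of the 2 exons. These include a pair of 71-nt exons of P4ha1, a collagen prolyl hydroxylase subunit (28.6% upstream alone, 70.1% downstream alone), the 236-nt and 227-nt exons of the E-protein gene Tcf3 (29.9% and 68.7%), and the 80-nt and 89-nt exons of Dlgap4, a postsynaptic scaffold gene (80.4% and 17.8%). In 13 pairs over 90% of reads carried both or neither. Many of these counts follow from how often each exon was present in the reads over both. In 8 of the 14 pairs, 1 exon was in over 90% of those reads and the other in under 10%, as in Tmem234, Syt16, Zcrb1, Vps39, Cdk11b, Sergef and Fam53a. Likewise, 2 exons that are each nearly always present are mostly present together. Presence in these reads can differ from inclusion. The 821-nt exon of Syt16 was in all 100 reads over each of its pairs, but in 45.5% and 52.4% of its own informative reads.

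In Flot2, a membrane scaffold gene, 20.7% of 333 reads carried the upstream of 2 exons of 91 nt alone, 61.3% the downstream alone, 2.1% both and 15.9% neither. In Rab28, 65.3% of 409 reads carried the 89-nt exon alone and 26.2% both it and the 95-nt exon. In Clk4, a kinase of splicing factors, 70.6% of 85 reads carried neither of 2 exons of 67 and 59 nt, and neither form mostly reached an annotated stop. The uncharacterised gene 4833439L19Rik held 4 of the exons, the highest number in a gene, which Zdhhc1 also reached. From the most upstream to the most downstream, the 4833439L19Rik exons were at 19.6%, 27.2%, 71.5% and 81.1% in replicate 1. In replicate 2 they were at 23.4%, 33%, 75.5% and 84.4%. Of 325 reads over the last 2 of these exons, 72.9% carried both and 17.8% neither.

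**Figure D5:**
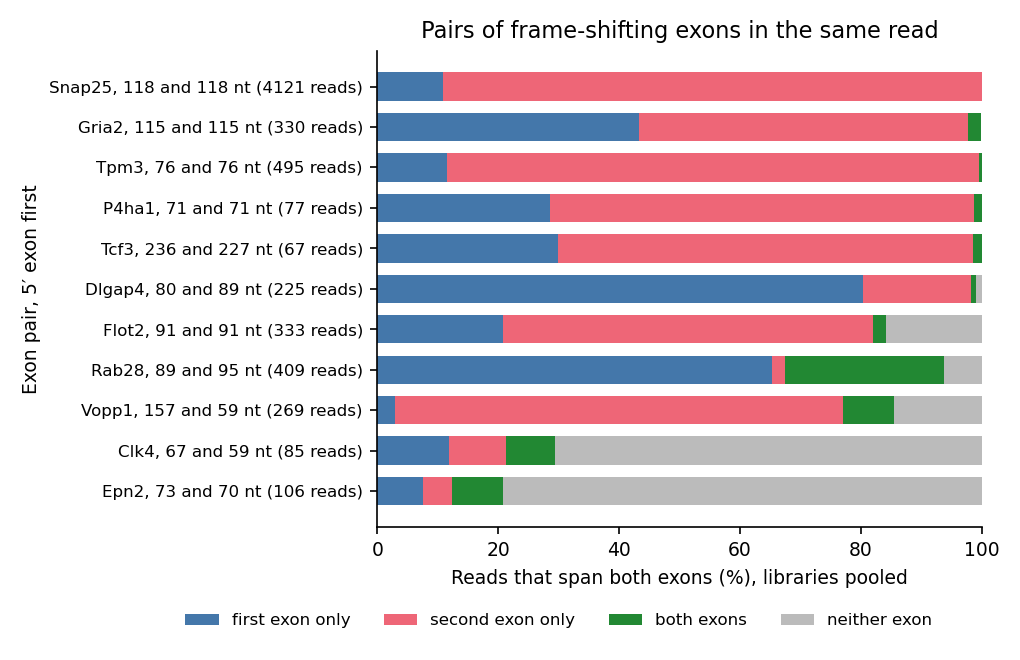
Percentage of reads that span both exons (x axis, libraries pooled) that carry the first exon alone, the second alone, both or neither, for 11 pairs of exons (y axis; gene, lengths and number of reads). Reads of Snap25, Gria2, Tpm3, P4ha1 and Tcf3 carry 1 exon of the pair with 0 reads without either, and Clk4 and Epn2 mostly carry neither.

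Most of the exons were known to the annotation. An exon is called annotated here when a transcript holds an internal exon with the same 2 ends, so an unannotated exon can still overlap annotated exons. Both the exon and the skipping junction were in GENCODE M21 transcripts for 503 exons (67.8%), with a median inclusion of 66.2%. The exon alone was annotated for 155 (20.9%, median 91.8%), the skipping junction alone for 80 (10.8%, median 8.64%) and neither for 4. Of the frame-preserving exons, 566 of 717 (78.9%) had both annotated. Reads that carried a member exon were on annotated protein-coding transcripts in 64.6% of cases and on unannotated models in 33.2%, and skipping reads in 60.1% and 35.7%. Transcripts annotated as decay targets held 1.4% and 1.59% of these reads.

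The unannotated exons with the most reads, beside the 215-nt exon of Asphd2, were a 79-nt exon of Celf4, a neuronal RNA-binding protein, at 8.07% and 11.5%, a 112-nt exon of Plekhb2 at 4.36% and 6.64%, and a 226-nt exon of Agap3, an Arf GTPase-activating protein, in 85 of 216 and 73 of 189 reads (39.4% and 38.6%). The Agap3 exon held an annotated stop codon, reached by all 135 followed inclusion reads. Its bases up to that stop thus lie in annotated exons, but not in an internal exon with the same ends. Among unannotated skipping junctions, those around 2 exons of AC149090.1 had the most reads (inclusion 56.6% and 59.6%, and 81.3% and 84.5%). That gene lies on an unplaced scaffold, and reads shared with near-identical copies were not examined. The 122-nt exon of Matr3, a nuclear RNA-binding protein, was at 87.7% and 91.2%, and the 76-nt exon of Eri3 at 87.8% and 88.2%.

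The exons were also grouped by lists of gene functions, each described by its counts beside the median of 73.7% over all 742. The matching share over all protein-coding genes is not given, so the counts do not show an excess in any list. Genes of RNA processing held 40 exons in 30 of the 156 such genes with at least 40 reads, with a median inclusion of 34.9% (35% and 34.8% in the 2 libraries). The included form alone kept the frame for 6 of them, the skipped form alone for 7, and both forms at the same stop for 11. Snrpa1, a U2 snRNP protein, carried its 80-nt exon in 27 of 31 and 23 of 28 reads (87.1% and 82.1%), and 8 of 9 skipping reads were on a decay-annotated transcript. In U2af1, which recognises the 3′ splice site, 2 exons of 67 nt were at 52.9% and 51.7% and at 36.7% and 36.4%, and 3.85% of 52 reads carried both. Celf4 carried its 85-nt exon after the stop codon in 10.4% and 10.3%, and in 0.781% of the pooled reads when annotated transcripts alone were counted.

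Genes of synapse and vesicle release held 14 exons in 9 of 112 genes (median 17.1%), and both forms reached the same stop for 8 of them, among them the Snap25 and Dlgap4 exons. Channel, receptor and transporter genes held 35 exons in 28 of 288 genes (median 72.1%), 14 with the same stop in both forms. In Gria3, another AMPA receptor gene, a 115-nt exon was in 86.7% and 86% of reads. Cytoskeleton and motor genes held 15 exons in 12 of 168 genes (median 81%), 8 of them with an annotated stop in the included form alone. The 118-nt exon of Sept4, a septin gene, was at 94.3% and 90.9%.

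Kinase, phosphatase and signalling genes held 41 exons in 35 of 385 genes (median 44.8%), mitochondrial and metabolic genes 28 in 24 of 326 (65.1%), protein turnover and trafficking genes 38 in 35 of 450 (86.4%), and transcription and chromatin genes 25 in 19 of 241 (24.2%). The included form alone kept the frame for 13 of the 38 turnover exons, such as the 80-nt exon of Cops4, a COP9 signalosome subunit (91.5% and 93.4%), and the 106-nt exon of Ubl4a (85.8% and 87%). The list of glia and vessel genes held the Gpm6b exon alone, of 41 genes. The 510 exons in no list had a median of 77.4%. In every list 0 exons differed between the libraries by the adjusted Fisher test, and 0 to 3 had an unadjusted p under 0.05.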

How the data were processed

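Long cDNA reads of 2 libraries from left cerebral cortex, 1 group, were analysed. The authors deposited, per the file headers, whole-number read counts per transcript model and library, with an annotation of the models that names TALON in its source column. Per the labels the assembly is mm10. The aligner, the error correction and the platform were not given in the sources used here.

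Counts were summed over models by their exons, and models with reads of protein-coding genes were used. The 742 exons follow the rule on length, reads (20 per library) and inclusion (5% to 95%) given in the opening. Exon, start and stop positions and sequences are those of GENCODE M21 (GRCm38), so alleles of the castaneus parent were not read. Models were followed from the start codon for as long as their bases lay in annotated exons. A model that met an unannotated base before any stop was not counted as followed, so early stops were kept more readily than late ones. A stop more than 50 nt before the last junction was called premature. The antisense and overlapping assignment of reads was taken as the authors made it.

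Inclusion was compared between libraries by Fisher's exact test (SciPy 1.17.1, Python 3.11.15), with Benjamini-Hochberg adjustment over 1730 cassette exons and a threshold of 0.05. The test and the counting were tested on simulated data. Intervals are 95% Wilson intervals.

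The members and gene lists were chosen with earlier results of these data known. Exons were named by reads (the 20 with the most), by list, by annotation status and by p. Those shown for their stop codons, for pairs in the same read, as exceptions or as further examples were chosen after their values were seen.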

Additional observations from a re-analysis of the deposited data

How the results depend on the processing

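Depth limits the set: 4847 further frame-shifting exons with skipping reads had under 20 informative reads in a library. The number of exons was 1297 with a minimum of 10 informative reads per library, 230 with 50, 400 with the window from 10% to 90%, 145 with annotated transcripts alone, 421 without models of 1 read and 429 above 100 nt. The 230, 400, 421 and 429 were all among the 742, as were 143 of the 145. Without replicate 1 or replicate 2 it was 878 and 900, and the other settings left it within 1.5 times of 742.

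Median inclusion was 55.1% with 50 reads, 60.1% in the narrower window, 68.1% with annotated transcripts and 68.3% without models of 1 read. The share of cassette exons over 51 nt that is frame-shifting (50.9%) was 53.4% with 10 reads, 44.7% with 50 reads, 46.5% in the narrower window, 42.3% with annotated transcripts, 51.5% without incomplete splice match and genomic models and 47.1% without models of 1 read. It was 49.7% with directly joined flanks, 49.2% with the most read pair of flanks, 55.4% above 100 nt, and 52.3% to 52.6% with 1 library left out.

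The share with exon and skipping junction annotated (67.8%) was 60.6% with 10 reads, 71.3% with 50 reads, 78.2% in the narrower window, 100% by construction with annotated transcripts, 71.7% without models of 1 read, and 60.1% to 63.4% with 1 library left out. Of exons with an annotated stop in 1 form alone, the included form held it for 69.6%. This was 68.2% with 10 reads, 66.7% with 50 reads, 66.9% in the narrower window, 63.2% with annotated transcripts, 68.5% without incomplete splice match and genomic models, 67.6% above 100 nt, 68% with the most upstream start codon, and 65.2% to 66.7% with 1 library left out. The start codon setting and leaving out exchanged exons (686 exons, median 72.5%) were chosen after seeing the data.

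Without incomplete splice match and genomic models, 1 exon of the set and 5 of all cassette exons differed between the libraries (Fisher's exact test, adjusted). Over all cassette exons the number called was 0 with 10 reads, with 50 reads, with annotated transcripts and with adjustment over all internal exons. The cause of these shifts was not tested. No paired analysis was possible because there is 1 group.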
